A study of Mus musculus with 6 samples.

Results

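The genes described here are the 5 subunits of the transcription factor NF-κB (Nfkb1, Nfkb2, Rel, Rela and Relb) and 5 of its inhibitors (Nfkbia, Nfkbib, Nfkbie, Nfkbiz and Tnfaip3), taken by name from a table of 23060 gene rows. All 10 names were found, and all 10 passed the minimum level for testing. The table gives FPKM, fragments per kilobase of transcript and scaled to the mapped fragments of the library, for 6 libraries of HL-1 cells, by their label a cardiomyocyte line from mouse atrium. Of these, 3 were control and 3 were tachypaced, that is, driven by rapid electrical stimulation as a culture model of the fast atrial rate of atrial fibrillation. Cells of both groups were labelled WT and were grown in Claycomb medium with serum, antibiotics, norepinephrine and L-glutamine, and the labels do not give the pacing rate or its duration. They also do not say whether replicates were separate cultures, so p-values cover the spread between these libraries alone, and that spread may be technical.

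NF-κB proteins bind DNA as dimers built from the 5 subunits. In resting cells the classical inhibitors, I-κB alpha, beta and epsilon (encoded by Nfkbia, Nfkbib and Nfkbie), hold dimers in the cytoplasm, and signals from receptors of TNF, interleukin 1 or bacterial products reach a kinase complex that marks these inhibitors for breakdown. Freed dimers then switch on inflammatory genes together with genes of their own inhibitors, so Nfkbia and Tnfaip3 are usually read as feedback genes. In macrophages this pathway drives the chemokine and cytokine response to endotoxin.

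The libraries carried few transcripts of the labelled cell type. Of 13 cardiomyocyte markers, 12 had a mean below 1 FPKM, and 8 of them, Myh6, Actc1, Myl7, Nppb, Nkx2-5, Gata4, Pln and Sln, were listed at 0 in every library. Tnni3 was the only one to reach 1 FPKM. The cardiomyocyte markers summed to 3.19 to 4.0 FPKM in control and 3.72 to 4.0 FPKM in tachypaced libraries. Of 13 macrophage markers, 11 passed the minimum level, and their sum over all 13 was 1397 to 1563 FPKM in control and 1699 to 1861 FPKM in tachypaced libraries. Fibroblast, endothelial and lymphocyte markers each summed to at most 1.93 FPKM, list by list, in any library. Because this macrophage marker sum was higher in every tachypaced library, with Lyz2 and Cd14 past the test, it moves with the results below, and its part in them was not tested. Control replicate 1 stood nearer to the tachypaced libraries than the other controls did, at 0.039 on the first principal component (56.4% of the variance). There the remaining controls lay at -0.47 and -0.62, and tachypaced libraries between 0.22 and 0.44. For the genes named below, a call that changes without control replicate 1 is given both ways. That library was singled out for this position, so calls without it are no independent check. Leaving it out raised the share of all tested genes called from 5.52% to 30.0%. No depth can be given, because FPKM holds no counts and low values did not fall on steps of whole reads. In bulk RNA, fewer cells of a type and less RNA per cell cannot be told apart.

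Many genes that answer to NF-κB carry a κB element, a short DNA site bound by its dimers, close to the start of transcription. Start regions of 300 bases, from 250 before to 50 after the start, were read from RefSeq (GRCm38.p6), which gave windows for 7 of the 10 genes. Nfkb1, Relb and Nfkbiz had none. The κB consensus, searched on both strands with overlaps kept, was present in a window of 5 of these 7 genes (Nfkb2, Rel, Nfkbia, Nfkbie and Tnfaip3) and absent from those of Rela and Nfkbib. It was present in 9.55% of all 27025 genes with a window and in 12.2% of the 8024 tested genes with one. Such a match is a description of letters in the window, not evidence of binding.

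The windows of the 2 inhibitor genes most often read as NF-κB feedback follow, on the strand of the gene, with κB matches in capitals. Nfkbia lies at chr12:55492598-55492897 on the minus strand and Tnfaip3 at chr10:19015361-19015660 on the minus strand.
Nfkbia: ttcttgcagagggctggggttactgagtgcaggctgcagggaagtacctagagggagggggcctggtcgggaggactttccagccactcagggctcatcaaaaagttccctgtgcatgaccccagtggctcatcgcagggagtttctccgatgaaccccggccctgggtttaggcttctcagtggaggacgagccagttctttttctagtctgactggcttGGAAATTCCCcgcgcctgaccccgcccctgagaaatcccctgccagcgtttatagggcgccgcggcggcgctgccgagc
Tnfaip3: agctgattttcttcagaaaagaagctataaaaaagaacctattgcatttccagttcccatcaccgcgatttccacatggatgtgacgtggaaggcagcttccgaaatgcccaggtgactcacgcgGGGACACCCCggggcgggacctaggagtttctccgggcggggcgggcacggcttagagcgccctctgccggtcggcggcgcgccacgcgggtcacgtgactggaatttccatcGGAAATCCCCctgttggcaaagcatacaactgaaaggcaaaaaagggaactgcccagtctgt
The Nfkbia match lies 29 to 20 bases before the start and reads GGGAATTTCC on the other strand. Tnfaip3 held matches from 125 and from 12 bases before the start, the latter reading GGGGATTTCC on the other strand, and its second RefSeq window held none.

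The subunit genes Nfkb2 (chr19:46304487-46304786, plus strand) and Rel (chr11:23770920-23771219, minus strand) also held matches, shown because these subunit genes can themselves be targets of NF-κB.
Nfkb2: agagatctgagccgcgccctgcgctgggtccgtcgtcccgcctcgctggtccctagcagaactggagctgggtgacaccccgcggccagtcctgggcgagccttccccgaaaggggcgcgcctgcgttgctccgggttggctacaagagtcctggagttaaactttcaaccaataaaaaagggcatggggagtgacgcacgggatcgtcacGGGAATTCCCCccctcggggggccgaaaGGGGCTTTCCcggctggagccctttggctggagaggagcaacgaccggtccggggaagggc
Rel: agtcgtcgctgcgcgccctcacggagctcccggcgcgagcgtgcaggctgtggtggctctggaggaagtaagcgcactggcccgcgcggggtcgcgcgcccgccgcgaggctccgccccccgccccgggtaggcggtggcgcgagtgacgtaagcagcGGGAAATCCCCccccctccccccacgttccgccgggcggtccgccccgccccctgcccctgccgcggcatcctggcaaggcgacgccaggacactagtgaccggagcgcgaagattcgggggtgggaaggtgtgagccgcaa
All 3 RefSeq windows of Nfkb2 held at least 1 match. The one shown held 2 separate stretches of matching bases, as did the window that starts at 46305445.

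Of the 12 pathway genes that rose in tachypaced libraries (below), 8 had a RefSeq window. The windows of Ccl3, Il1rn, Lcn2, Ptgs2, Saa3 and Tnf held no match. The consensus was held by 2 of the 8, the neutrophil chemokine genes Cxcl2 (chr5:90903649-90903948, plus strand) and Cxcl3 (chr5:90785851-90786150, plus strand).
Cxcl2: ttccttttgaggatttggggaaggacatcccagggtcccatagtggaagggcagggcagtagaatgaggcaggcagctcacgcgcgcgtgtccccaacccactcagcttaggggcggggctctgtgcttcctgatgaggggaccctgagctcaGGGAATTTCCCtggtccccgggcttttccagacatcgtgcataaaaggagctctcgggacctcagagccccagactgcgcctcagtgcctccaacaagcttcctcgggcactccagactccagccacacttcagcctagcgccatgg
Cxcl3: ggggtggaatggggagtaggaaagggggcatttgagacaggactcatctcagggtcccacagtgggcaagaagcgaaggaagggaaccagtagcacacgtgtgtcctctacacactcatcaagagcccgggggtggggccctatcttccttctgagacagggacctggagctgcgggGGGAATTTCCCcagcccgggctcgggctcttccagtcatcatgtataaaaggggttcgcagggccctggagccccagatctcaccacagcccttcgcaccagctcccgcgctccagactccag
Both hold the same 10 bases as Nfkbia, GGGAATTTCC, an exact run found in the windows of 29 of the 27025 genes (0.107%) and of 12 of the 8024 tested ones (0.15%). Cxcl2 and Cxcl3 lie near each other on chromosome 5, and their windows share further runs of bases. Their matches therefore need not be independent of each other. Nfkbia, Cxcl2 and Cxcl3 thus share these letters near the start, and their values in tachypaced libraries are set beside each other below.

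The order of levels was led by Nfkbia, the I-κB alpha gene, at a mean of 164 FPKM over the 6 libraries. Next came Nfkbib (30.6 FPKM), which encodes I-κB beta, and Nfkb2 (26.9 FPKM), the gene of the precursor of the non-canonical pathway. The ranges of these 3 genes over the 6 libraries overlapped neither with each other nor with the next gene. Then followed Rel (15.5 FPKM), Nfkbiz (14.6), Nfkb1 (14.1), Relb (12.4), Rela (11.8) and Tnfaip3 (10.8), each overlapping in range with its neighbour in this order. Nfkbie, the I-κB epsilon gene, was lowest at 5.33 FPKM and lay below every other member in all 6 libraries. FPKM is scaled to transcript length, so these levels can be set side by side, within the limits of the authors' gene models.

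**Figure D1:**
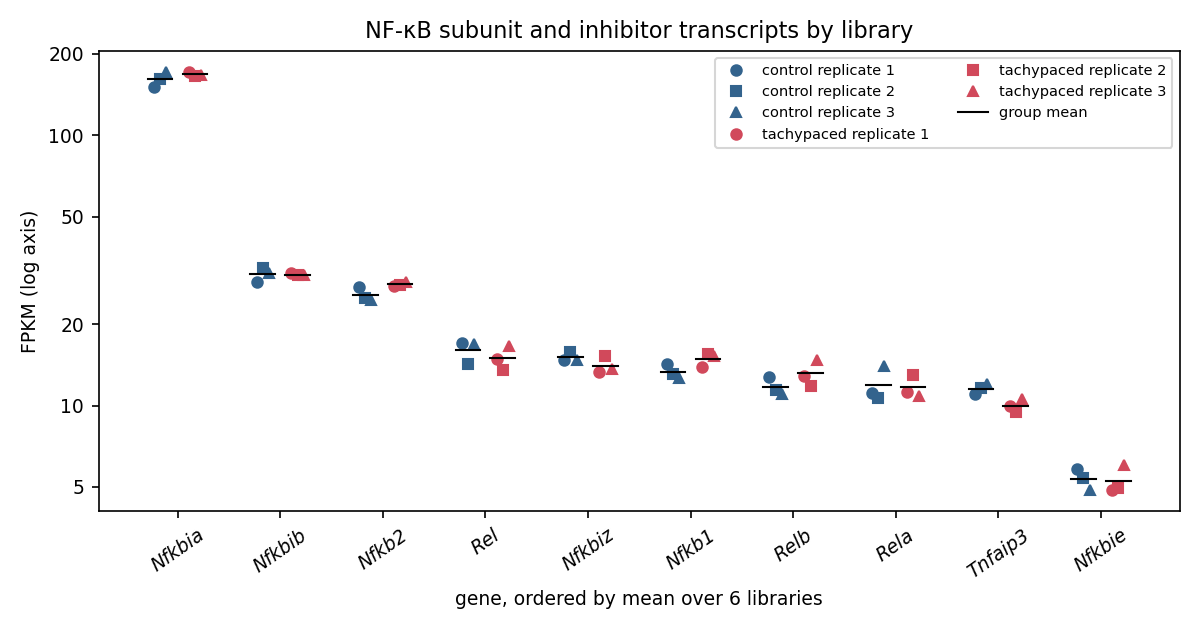
FPKM of the 10 genes (log axis) in the 3 control (blue) and 3 tachypaced (red) libraries, with replicates 1, 2 and 3 as circle, square and triangle and the group mean as a bar. Nfkbia stands at 150.1 to 171.6 FPKM, far above the other genes, and the groups overlap in 8 of the 10 genes, all but Nfkb2 and Tnfaip3.

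To ask whether tachypacing changed this machinery, the 10 genes were read from a fit over all 10361 tested genes (limma on log2(FPKM + 1), two-sided, Benjamini-Hochberg adjusted over all of them, threshold 0.05). None of the 10 genes passed, with 0 higher and 0 lower, against 2.3% of all tested genes called higher and 3.22% called lower, 5.52% in all. These shares stand for 238 genes higher and 334 lower, a split that became 221 and 183 under median of ratios scaling and 250 and 922 after rescaling to a common total. At an unadjusted p below 0.05, 1 of the 10 was lower (Tnfaip3) and 0 were higher, against 19.4% of all tested genes lower and 10.8% higher (30.2% in all). The groups did not overlap in 2 of the 10, Nfkb2 (higher) and Tnfaip3 (lower), against 12.6% of all tested genes higher and 22.4% lower (34.9% in all). The fold changes of the 10 genes on the log2 scale ran from -0.19 to 0.15, with a median of -0.014 beside -0.037 over all tested genes. Of the 10, 4 were above 0 and 6 below, of which Rela, Nfkbib and Nfkbie turned above 0 under median of ratios scaling and under quantile normalization. With all 6 libraries, every 95% interval lay between -0.34 and 0.35 on the log2 scale. A change beyond 0.79-fold or 1.28-fold on the FPKM + 1 scale thus falls outside the intervals of all 10 in that fit. Without control replicate 1 the intervals of Relb (up to 0.41) and Tnfaip3 (down to -0.37) reached beyond these bounds. A p above the threshold does not show that a gene was the same in both groups. Without control replicate 1, 1 of the 10 was called higher (Nfkb2) and 1 lower (Tnfaip3), while 11.2% and 18.8% of all tested genes were called in these directions (30.0% in all).

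Among the subunits, Nfkb2 (GRCm38 chromosome 19, 46304320 to 46312385) encodes the precursor that non-canonical signals cut to an active subunit. It stood at 27.5, 25.03 and 24.5 FPKM in the controls and 27.8, 27.8 and 28.6 FPKM under tachypacing. Every tachypaced library lay above every control, with control replicate 1 the nearest to them. The log2 fold change was 0.12 (SE 0.06, adjusted p = 0.197 by limma), and 0.17 (SE 0.05, adjusted p = 0.0300 by limma) without control replicate 1. With any other single library left out, the adjusted p was 0.333 to 0.463 by limma. Of 17 settings, the main fit included, Nfkb2 was called in 2. On the opposite strand Nfkb2 overlaps exons of Psd and of a non-coding gene at its start, and the strand setting of the counting is not given in the sources used here.

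Nfkb1 (chromosome 3, 135584655 to 135691547) encodes the related precursor of the classical pathway. It stood at 14.2, 13.1 and 12.7 FPKM in the controls and 13.9, 15.6 and 15.2 FPKM under tachypacing. Here tachypaced replicate 1 lay below control replicate 1, so the groups overlapped, and the log2 fold change was 0.15 (SE 0.07, adjusted p = 0.185 by limma). In each library Nfkb2 exceeded Nfkb1 by 1.79 to 2.00 times, with ratios of 1.93 ± 0.0167 in the controls and 1.89 ± 0.106 under tachypacing (SD, n = 3 each).

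Relb (chromosome 7, 19606217 to 19629438), the subunit that pairs with the processed Nfkb2 product, stood at 12.7, 11.4 and 11.05 FPKM in the controls and 12.9, 11.9 and 14.7 FPKM under tachypacing. The highest value was that of tachypaced replicate 3, and tachypaced replicate 2 lay below control replicate 1. The log2 fold change of 0.15 (SE 0.09, adjusted p = 0.268 by limma) had the highest upper bound of the 10 intervals, which ran from -0.05 to 0.35.

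Rela (chromosome 19, 5637483 to 5648130) encodes the main activating subunit of the classical dimer. It stood at 11.1, 10.7 and 14.03 FPKM in the controls and 11.2, 12.9 and 10.9 FPKM under tachypacing. Control replicate 3 was the highest of the 6 and the groups overlapped throughout, and the log2 fold change was -0.026 (SE 0.11, adjusted p = 0.891 by limma). Rel (chromosome 11, 23736847 to 23770970) encodes c-Rel, a subunit used mainly in lymphoid and myeloid cells, and stood at 16.97, 14.3 and 16.9 FPKM in the controls and 14.9, 13.5 and 16.6 FPKM under tachypacing. Its groups also overlapped (log2 fold change -0.09, SE 0.09, adjusted p = 0.532 by limma). Rel exceeded Rela in all 6 libraries, by 1.05 to 1.53 times. Summed over the 5 subunits, the level was 78.7 ± 4.03 FPKM in the controls and 82.8 ± 2.89 FPKM under tachypacing (SD, n = 3 each), and these groups overlapped.

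Among the inhibitors, Nfkbia (chromosome 12, 55489410 to 55492647) stood at 150.1, 160.9 and 171.4 FPKM in the controls and 171.6, 165.3 and 166.5 FPKM under tachypacing. Control replicate 3 lay above 2 of the tachypaced libraries, and control replicate 1 was the lowest of all. The log2 fold change was 0.06 (SE 0.06, 95% interval -0.07 to 0.20, adjusted p = 0.494 by limma), and 0.015 (SE 0.05) without control replicate 1. On this gene control replicate 1 did not lie toward the tachypaced libraries.

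Nfkbib (chromosome 7, 28758251 to 28767512) stood at 28.7, 32.3 and 30.85 FPKM in the controls and 30.9, 30.3 and 30.4 FPKM under tachypacing, and had the smallest difference of the 10 genes (log2 fold change -0.0047, SE 0.06, adjusted p = 0.966 by limma). Exons of Sirt2 and Ccer2 on the opposite strand overlap it. Nfkbie (chromosome 17, 45555703 to 45563169) stood at 5.84, 5.39 and 4.89 FPKM in the controls and 4.87, 4.94 and 6.02 FPKM under tachypacing, and its log2 fold change was -0.024 (SE 0.09, adjusted p = 0.886 by limma). In both of these genes the tachypaced values fell on either side of control values. Summed, the 3 classical inhibitors stood at 197 ± 11.3 FPKM in the controls and 204 ± 3.49 FPKM under tachypacing. Their sum was 2.51 ± 0.233 times the subunit sum in control and 2.46 ± 0.108 times in tachypaced libraries (SD, n = 3 each).

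Nfkbiz (chromosome 16, 55811375 to 55838899) encodes a nuclear I-κB protein that is itself induced by endotoxin and promotes a later group of NF-κB targets. It stood at 14.7, 15.8 and 14.7 FPKM in the controls and 13.3, 15.2 and 13.7 FPKM under tachypacing. Tachypaced replicate 2 lay among the controls and the other two below them, and the log2 fold change was -0.10 (SE 0.07, adjusted p = 0.368 by limma).

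Tnfaip3 (chromosome 10, 19000910 to 19015657) encodes a ubiquitin-editing enzyme that shuts off signalling upstream of the I-κB kinases. It stood at 11.06, 11.6 and 11.98 FPKM in the controls and 9.965, 9.49 and 10.5 FPKM under tachypacing. All 3 tachypaced values lay below all 3 control values, as in 22.4% of all tested genes. The log2 fold change was -0.19 (SE 0.07, 95% interval -0.34 to -0.04) and did not pass the test (unadjusted p = 0.0181, adjusted p = 0.0974 by limma). Without control replicate 1 it was -0.22 (SE 0.07, adjusted p = 0.0377 by limma). With any other single library left out, the adjusted p was 0.128 to 0.277 by limma. Of 17 settings, the main fit included, Tnfaip3 was called in 2. In size, 71.4% of all tested genes had a smaller difference than Tnfaip3.

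**Figure D2:**
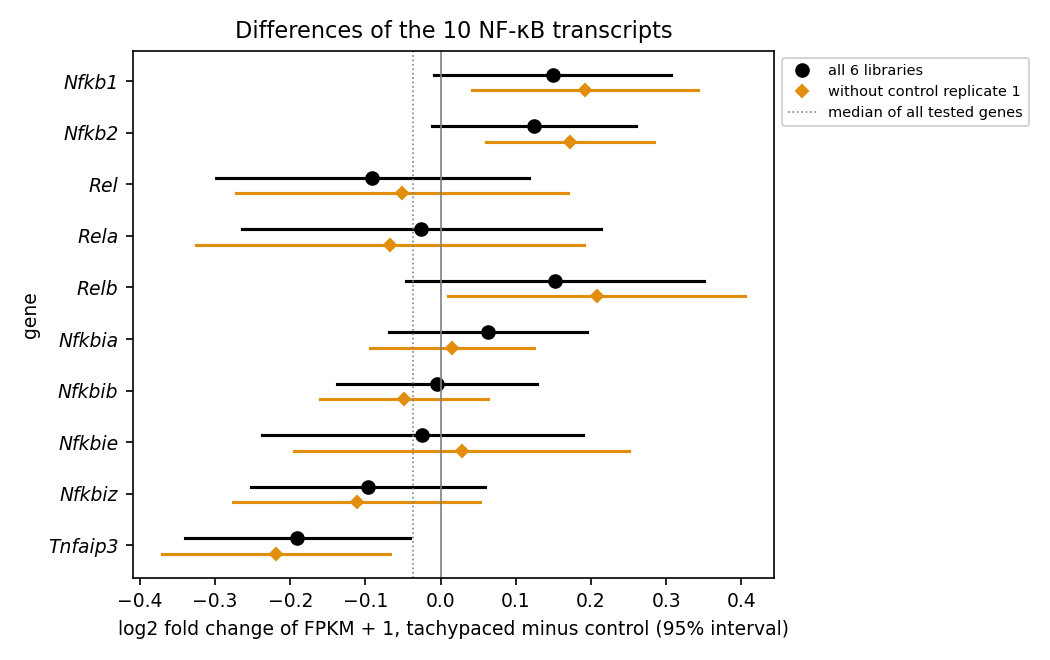
Log2 fold change of FPKM + 1 (tachypaced minus control, horizontal axis) of the 10 genes with its 95% interval, from all 6 libraries (black circles) and without control replicate 1 (orange diamonds), beside the median of all tested genes (dotted line, -0.037). With all 6 libraries the intervals of 9 genes cover 0 and that of Tnfaip3 runs from -0.34 to -0.04.

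The replicate spread of these genes lay on both sides of the middle of all tested genes. Within the control group the coefficient of variation of the 10 genes ran from 4.03% to 15.2%, and within the tachypaced group from 1.06% to 12.2%. Over all 6 libraries the SD of log2(FPKM + 1) was 0.0535 for Nfkbib, below which only 8.06% of tested genes fell, and 0.0717 for Nfkbia, with 18.6% below it. The largest was 0.147 for Rela, with 67.9% below it. Control replicate 1 lay nearer to the tachypaced mean than to the mean of the other controls in 6 of the 10 genes (60.0%), and in 58.7% of all tested genes. Genes were also compared for likeness, as the root mean square difference between centred log2(FPKM + 1) profiles over the 6 libraries. Nfkb1 and Nfkb2 were each other's nearest member, at 0.046, and among all tested genes the nearest to Nfkb2 were Ndfip2 (0.0143), Vav3 (0.017) and Tnfaip2 (0.017). Nfkbia and Nfkbib were each other's nearest member, at 0.0574, and the nearest gene to Nfkbia was Htra2 (0.022). Vps35 (0.0101), Usp25 (0.0131) and Glud1 (0.0144) lay nearest to Tnfaip3. These distances rest on 6 libraries that share 2 groups, and small ones are common among genes that vary little.

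Around these genes, 108 others of the pathway were read from 4 lists, of ligands and receptors, of adaptors and kinases, of further inhibitors and of target genes, and 89 of them could be tested. Of the 89, 12 rose and 0 fell, and 11 of the 12 were targets, while 2.3% of all tested genes were called higher and 3.22% lower. The median log2 fold change was 0.27 over 12 ligands and receptors, -0.011 over 28 adaptors and kinases, -0.041 over 22 further inhibitors and 0.33 over 27 targets, beside -0.037 over all tested genes. The number of calls depended on single libraries. Leaving out control replicate 2, control replicate 3, tachypaced replicate 1 or tachypaced replicate 2 left 1 of the 89 called higher (Cxcl3 each time), leaving out tachypaced replicate 3 left Cxcl3 and Lcn2, and leaving out control replicate 1 gave 32 higher and 6 lower (11.2% and 18.8% of all tested genes).

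Of the 12 tested ligands and receptors, 1 rose and 0 fell, against 2.3% and 3.22% of all tested genes. At an unadjusted p below 0.05 by limma, 6 were higher and 0 lower, against 10.8% and 19.4% of all tested genes. Leaving out control replicate 1 gave 6 called higher and 0 lower, against 11.2% and 18.8%. The gene called with all 6 libraries was Tnf, the ligand that starts the classical pathway. It stood at 46.9, 40.05 and 38.3 FPKM in the controls and 54.3, 55.6 and 51.7 FPKM under tachypacing (log2 fold change 0.36, SE 0.08, adjusted p = 0.0435 by limma). The groups did not overlap, and control replicate 1 was the control nearest to the tachypaced libraries. Of 17 settings, the main fit included, Tnf was called in 9. Il1b, the interleukin 1 beta gene, was listed at 0 in every library. Tnfrsf1b, a TNF receptor gene, had a mean below the level tested, at 0.826 ± 0.0677 FPKM in the controls and 1.10 ± 0.0572 FPKM under tachypacing. Tlr4, the endotoxin receptor gene, stood at 5.54 ± 1.18 and 7.20 ± 0.516 FPKM (SD, n = 3 each) and did not pass (log2 fold change 0.34, adjusted p = 0.102 by limma). It was called higher without control replicate 1 (0.48, SE 0.08, adjusted p = 0.00340 by limma).

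Of the 28 tested adaptors and kinases, 0 passed in either direction in the limma fit, and at an unadjusted p below 0.05 there were 2 higher and 4 lower, against 10.8% and 19.4% of all tested genes. Leaving out control replicate 1 gave 4 called higher and 2 lower on this list, against 11.2% and 18.8% of all tested genes. The kinases that phosphorylate the I-κB proteins are encoded by Chuk and Ikbkb, and their groups overlapped. Chuk stood at 37.5 ± 1.29 FPKM in the controls and 38.7 ± 1.75 FPKM under tachypacing, and Ikbkb at 14.3 ± 0.732 and 13.96 ± 0.772 FPKM. Ikbkg, the gene of the scaffold of this kinase complex, stood at 17.07, 16.0 and 17.1 FPKM in the controls and 14.5, 14.35 and 14.6 FPKM under tachypacing. All 3 tachypaced values lay below the controls, but the difference did not pass (log2 fold change -0.19, SE 0.06, adjusted p = 0.0715 by limma). Ikbkg was called lower without control replicate 1 (adjusted p = 0.0461 by limma), with estimated library weights (0.0371) and after rescaling to a common total (0.0440), and the gene overlaps G6pdx on the opposite strand. Map3k14, the kinase of the non-canonical pathway, stood at 4.45 ± 0.609 and 4.59 ± 0.319 FPKM. Ikbke, an I-κB kinase relative named after its values were seen, stood at 10.5, 6.11 and 6.02 FPKM in the controls and 12.7, 12.8 and 11.7 FPKM under tachypacing. It had the largest change on this list (log2 fold change 0.69, SE 0.17) and did not pass (adjusted p = 0.0508 by limma). It was called higher without control replicate 1, the highest of the controls (0.92, SE 0.07, adjusted p = 0.000305 by limma).

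Of the 22 further inhibitors, 0 passed in either direction in the limma fit, with 3 higher and 1 lower at an unadjusted p below 0.05, against 10.8% and 19.4% of all tested genes. The groups did not overlap in 5 of the 22, against 34.9% of all tested genes. With control replicate 1 left out, 3 were called higher and 2 lower, against 11.2% and 18.8% of all tested genes. Bcl3, an atypical nuclear I-κB gene, stood at 2.36, 2.32 and 2.33 FPKM in the controls and 3.25, 2.87 and 2.95 FPKM under tachypacing (log2 fold change 0.27, SE 0.08, adjusted p = 0.0663 by limma). Cyld, a deubiquitinase gene that restrains the pathway, stood at 15.8 ± 0.916 and 13.2 ± 0.797 FPKM (log2 fold change -0.24, SE 0.07, adjusted p = 0.0680 by limma). In both genes the groups did not overlap. Both were called without control replicate 1, Bcl3 higher at an adjusted p of 0.0400 and Cyld lower at 0.0462 by limma. The same held with estimated library weights (0.0187 and 0.0411), and Cyld was also called lower after rescaling to a common total (0.0447). Tnip1, whose product works with that of Tnfaip3, stood at 25.8 ± 0.822 and 23.7 ± 0.785 FPKM (adjusted p = 0.188 by limma), again without overlap and in the direction of Tnfaip3. Nfkbid and Zc3h12a had log2 fold changes of -0.04 and -0.02, with overlapping groups, and both turned above 0 under quantile normalization, Zc3h12a also under median of ratios scaling.

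Of the 27 tested target genes, 11 rose and 0 fell (40.7%, against 2.3% of all tested genes called higher). This list was written with earlier results of these data known and is no independent evidence of its direction. The largest change was that of Cxcl3, at 0.688, 0 and 0.731 FPKM in the controls and 14.2, 15.04 and 12.9 FPKM under tachypacing (log2 fold change 3.39, SE 0.19, adjusted p = 0.000254 by limma). The size of this change is set by the pseudocount, and with 0.1 in place of 1 it was 5.13 (adjusted p = 0.0437 by limma). Lcn2, an iron-siderophore binding protein gene, Csf3, the granulocyte colony stimulating factor gene, and Saa3, an acute-phase gene, had log2 fold changes of 1.60, 1.39 and 1.25. Cxcl2 rose from 793 ± 146 to 1354 ± 121 FPKM and Ptgs2, the cyclooxygenase 2 gene, from 81.3 ± 7.81 to 107 ± 5.296 FPKM (SD, n = 3 each). Ccl3, a monocyte chemokine gene, rose by 0.94 on the log2 scale. Lcn2, Csf3, Saa3, Cxcl2, Ptgs2 and Ccl3 all had the same adjusted p of 0.0435 by limma, close to the threshold. Of 17 settings, the main fit included, Lcn2 was called in 11 and each of the others in 9. Other targets fixed by name did not pass with all 6 libraries. Icam1, an adhesion molecule gene, stood at 55.6 ± 5.90 and 60.3 ± 2.17 FPKM (adjusted p = 0.312 by limma), Cd83 at 14.7 ± 1.65 and 16.2 ± 0.361 FPKM (adjusted p = 0.244), and Sod2, the mitochondrial superoxide dismutase gene, at 17.9 ± 1.26 and 21.2 ± 0.963 FPKM (adjusted p = 0.0684). All 3 were called higher without control replicate 1, at adjusted p of 0.0158, 0.0155 and 0.0376 by limma. With estimated library weights they also passed (adjusted p = 0.0483, 0.0324 and 0.0391 by limma), as did Sod2 with the replicate block (0.0478). Without control replicate 1, 19 of the 27 targets were called higher and 2 lower, against 11.2% and 18.8% of all tested genes. Bcl2a1b, a survival gene with near-identical copies between which reads could be divided, was at or below 0.545 FPKM.

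**Figure D3:**
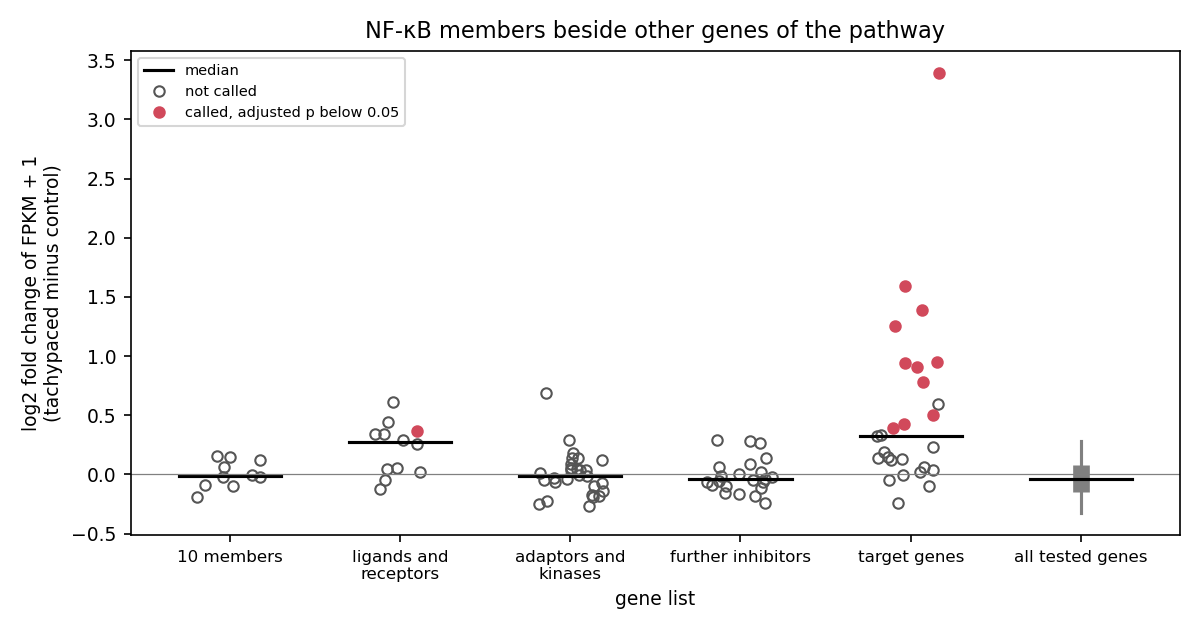
Log2 fold change of FPKM + 1 (tachypaced minus control) of each tested gene of the 10 NF-κB genes and of the 4 pathway lists, with called genes filled in red, list medians as black lines, and for all tested genes the 5th to 95th percentiles (thin line, -0.33 to 0.28) and the 25th to 75th (thick line). Filled points appear among the targets (11) and the ligands and receptors (1, Tnf), and none among the 10 members, the adaptors and kinases or the further inhibitors.

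Within each library, targets were set against inhibitors. Cxcl2 stood at 6.36, 4.67 and 3.92 times Nfkbia in control and 8.18, 8.72 and 7.31 times in tachypaced libraries. Tnf stood at 4.24, 3.45 and 3.20 times Tnfaip3 in the controls and 5.45, 5.85 and 4.90 times under tachypacing. In both ratios the tachypaced libraries lay above all controls, with log2 differences of 0.72 and 0.58 between the group means. The exact permutation test (two-sided) gave p = 0.1 for each, the smallest that 3 against 3 libraries allow, and 0.4 adjusted over the 8 sums and ratios computed. Both pairs were picked with the values of their genes known. All tachypaced values lay above the controls for Tnf and below them for Tnfaip3, so that ratio had to separate and its p was fixed. The Cxcl2 ratio largely restates the rise of Cxcl2 (log2 fold change 0.78), since that of Nfkbia was 0.06. Neither ratio is further evidence of a difference. The other 6, all sums or ratios among the NF-κB genes, had overlapping groups and exact permutation p from 0.3 to 0.8. Cxcl2, Cxcl3 and Nfkbia hold the same 10-base κB match near their starts, and Nfkbia did not pass the test. The windows of Cxcl2 and Cxcl3 were read because these genes had been called higher, so their rise was fixed by that choice. The 10 bases were those of the Nfkbia match. Values of the other tested genes with these bases are not given here, and a link between the match and a rise was not tested.

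**Figure D4:**
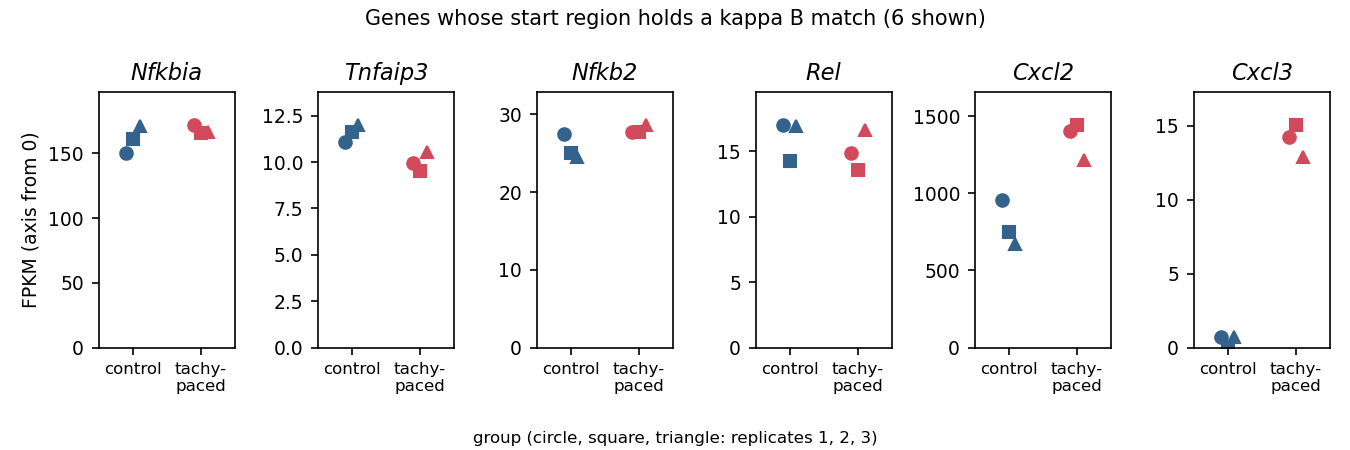
FPKM (each vertical axis from 0) of 6 genes whose start region holds a κB match, in control (blue) and tachypaced (red) libraries. Nfkbie also held a match and is not shown (log2 fold change -0.024, groups overlapping). Cxcl2 and Cxcl3, shown because they had been called higher, are higher in every tachypaced library. Nfkb2 is higher by a small margin, Tnfaip3 is lower, and the groups of Nfkbia and Rel overlap.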

How the data were processed

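RNA of 3 control and 3 tachypaced samples labelled HL-1 was made into libraries with a SMARTER mRNA kit, per the labels' protocols. The authors deposited 1 table of FPKM values, 1 column for each library. The submitters' processing notes name GRCm38 (mm10) as the genome build. The sources used here name no aligner, quantifier, annotation or strand setting. FPKM is relative to each library's total and depends on how reads of overlapping or near-identical genes were assigned, and no depth or detection limit could be given.

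Columns were matched to samples by the sample descriptions. Genes whose mean reached 1 FPKM (10361 of 23060) were tested on log2(FPKM + 1) with limma 3.58.1 in R 4.3.3 (lmFit, eBayes with trend, no covariates), Benjamini-Hochberg adjusted, threshold 0.05. This scale understates the change of low genes. The steps were tested on simulated data. Positions came from GENCODE M21. Alternatives were a pseudocount of 0.1, other filters, scalings and limma settings, a replicate block and each library left out. The genes and lists were chosen with earlier results of these data known. Named genes are all 10 members, up to 4 called genes per list with the largest change and without overlap, and a fixed set. Tables and figures used Python 3.11.15 and matplotlib 3.10.9.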

Additional observations from a re-analysis of the deposited data

How the results depend on the processing

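For the 10 NF-κB genes, 0 were called higher and 0 lower under every alternative except limma with estimated library weights and the fit without control replicate 1, each with 1 higher (Nfkb2) and 1 lower (Tnfaip3). The range with 1 library left out was therefore 0 to 1 in each direction. Among all tested genes, 238 were higher and 334 lower. These became 0 and 0 with no filter on low values, 13 and 4 under quantile normalization, 2 and 0 without the trend, and 1154 and 1942 with estimated library weights. They became 221 and 183 under median of ratios scaling and 250 and 922 after rescaling to a common total. With 1 library left out they ran from 1 to 1162 higher and from 0 to 1947 lower, the high ends without control replicate 1. Of the 89 other pathway genes, 12 were higher and 0 lower. The higher became 0 with no filter, 2 under quantile normalization, 1 without the trend and 29 with library weights, and 1 to 32 with 1 library left out. The lower became 2 after rescaling and 7 with library weights, and 0 to 6 with 1 library left out. The cause of these shifts was not tested. The rescaled fits also move the median of all tested genes, from -0.037 to -0.011 (median of ratios), -0.0047 (quantile) and -0.072 (common total).

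The labels state no pairing of the libraries by replicate number. Same-numbered deviations from the group means correlated at 0.0615, -0.034 and 0.157, and differently numbered ones at -0.156 to 0.0811. With 3 libraries in each group, these values cannot settle whether same-numbered libraries shared a batch. With the replicate block 334 genes were higher and 591 lower, and still 0 of the 10 NF-κB genes passed.

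Differences near 0 changed sign. Under median of ratios scaling Rela stood at 0.0023, Nfkbib at 0.024, Nfkbie at 0.00082 and Zc3h12a at 0.0092. Under quantile normalization Rela stood at 0.031, Nfkbib at 0.018, Nfkbie at 0.019, Ikbkb at 0.027, Nfkbid at 0.016 and Zc3h12a at 0.041, and with library weights Ikbkb stood at 0.018. With 1 library left out, Rela ran from -0.096 to 0.086, Nfkbib from -0.049 to 0.034, Nfkbie from -0.107 to 0.028, Ikbkb from -0.068 to 0.0082, Map3k14 from -0.020 to 0.13, Nfkbid from -0.097 to 0.016 and Zc3h12a from -0.066 to 0.022. None of these was called in any setting. The other 7 NF-κB genes kept their sign under every alternative.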

Other observations

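Some pathway genes outside the fixed names, picked after their values were seen, had groups that did not overlap while missing the threshold. Among the 89 tested pathway genes the groups did not overlap in 27 higher and 9 lower, against 12.6% and 22.4% of all tested genes. Tlr2, Ticam1 and Birc2 were among the lower ones (log2 fold change -0.12, -0.14 and -0.27, adjusted p = 0.225, 0.178 and 0.0908 by limma). The next 3 genes were higher. Ltb, the lymphotoxin beta gene, stood at 18.0, 16.9 and 12.2 FPKM in the controls and 20.8, 21.9 and 21.7 FPKM under tachypacing (log2 fold change 0.45, SE 0.12, adjusted p = 0.0609 by limma). Its receptor gene Ltbr stood at 8.71, 9.16 and 8.03 FPKM in the controls and 10.02, 12.7 and 10.9 FPKM under tachypacing (log2 fold change 0.34, SE 0.09, adjusted p = 0.0595 by limma). Cd40, the gene of a receptor that B cells and macrophages carry, stood at 12.5, 9.74 and 5.31 FPKM in the controls and 14.7, 14.3 and 12.7 FPKM under tachypacing (log2 fold change 0.61, SE 0.23, adjusted p = 0.115 by limma). In Cd40 control replicate 1 came close to tachypaced replicate 3. Without control replicate 1 the adjusted p was 0.00874 for Ltb, 0.0322 for Ltbr and 0.0112 for Cd40, and 11.2% of all tested genes were then called higher.

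The 3 genes of the linear ubiquitin ligase, which acts upstream of the I-κB kinases, also did not overlap between groups, in different directions. Rbck1 stood at 22.03, 26.3 and 27.1 FPKM in the controls and 20.5, 20.3 and 21.8 FPKM under tachypacing, and Rnf31 at 7.82, 8.25 and 8.69 FPKM and 6.55, 7.46 and 7.46 FPKM. Sharpin was higher instead, at 19.1, 18.5 and 19.3 FPKM in the controls and 22.1, 21.6 and 19.35 FPKM under tachypacing. None of the 3 passed (adjusted p = 0.0843, 0.142 and 0.187 by limma). Rbck1 was called lower without control replicate 1 (log2 fold change -0.34, SE 0.055, adjusted p = 0.00342 by limma), and Rnf31 (adjusted p = 0.0649) and Sharpin (0.140) were not. Groups did not overlap in 34.9% of all tested genes.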
